A study of Mus musculus with 12 samples.

Results

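The posterior Hox genes of the mouse colon were described here through 10 genes, 10 of the 39 Hox protein genes and of the 54532 genes in the deposited count table. They were chosen by symbol, with their measured values in these 12 libraries already known, because Hoxb13 and some of its relatives differed sharply between libraries of the same treatment. They comprise the paralogues numbered 13 of 3 clusters (Hoxa13, Hoxb13 and Hoxd13), Hoxd12 to Hoxd9 and Hoxa11 beside them, and Hoxb6 and Hoxb7 from the middle of the Hoxb cluster. All 10 passed the filter on low counts, which 16904 genes passed. Colonic RNA was sequenced from 12 male wild-type C57BL/6J mice aged 5 weeks, with 3 mice under each of 4 treatments. Acute colitis was induced with dextran sodium sulfate (DSS), which damages the lining of the colon, in all groups but the control group. The model group had DSS alone, the DXM group DSS with the glucocorticoid dexamethasone at 4 mg/kg, and the Rhy group DSS with Rhy. The labels list Rhy at 2, 4 and 8 mg/kg and do not say which dose the sequenced mice had. Pieces of the excised colon were taken for RNA, and the labels do not say from where along its length.

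Hox genes encode homeodomain transcription factors that give cells their position along the head-to-tail axis. Within each cluster the genes are expressed in the order in which they lie, so that the last genes of a cluster, those numbered 13, are used in the most posterior tissues. In the gut, Hoxa13 and Hoxd13 are required for the hindgut and the anorectal region, and Hoxb13 is a known marker of the distal colon and rectum and of the prostate. Cdx1 and Cdx2 are transcription factors of the intestine that work together with this positional code.

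Of the 10 members, 7 had an entry among the RefSeq promoters of GRCm38.p6, and Hoxb13, Hoxb6 and Hoxb7 had none. The 250 bases before the annotated start are shown for Hoxd13 and Hoxd12, the neighbours that came closest to 0 in the same libraries, and for Hoxa13, the paralogue of Hoxd13 that had counts in every library. The windows lie at chr2:74667975-74668224 (plus strand), chr2:74674763-74675012 (plus strand) and chr6:52260881-52261130 (minus strand). Capitals mark exact matches on either strand. The motifs searched were the TATA box core with the letters TATAAA, the core bound by Cdx factors with the letters CATAAA, the core bound by Hox proteins numbered 13 with the letters CAATAAA, and the CCAAT box with the letters CCAAT.
Hoxd13: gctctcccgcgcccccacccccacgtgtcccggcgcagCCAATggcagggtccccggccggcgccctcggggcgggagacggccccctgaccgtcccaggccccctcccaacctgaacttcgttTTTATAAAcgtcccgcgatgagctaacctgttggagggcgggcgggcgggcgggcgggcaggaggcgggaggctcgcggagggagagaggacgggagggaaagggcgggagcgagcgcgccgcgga
Hoxd12: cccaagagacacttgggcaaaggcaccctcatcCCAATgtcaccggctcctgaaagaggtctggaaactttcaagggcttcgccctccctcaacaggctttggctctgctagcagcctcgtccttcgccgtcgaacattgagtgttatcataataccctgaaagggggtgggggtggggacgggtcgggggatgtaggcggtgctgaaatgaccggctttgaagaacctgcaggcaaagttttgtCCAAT
Hoxa13: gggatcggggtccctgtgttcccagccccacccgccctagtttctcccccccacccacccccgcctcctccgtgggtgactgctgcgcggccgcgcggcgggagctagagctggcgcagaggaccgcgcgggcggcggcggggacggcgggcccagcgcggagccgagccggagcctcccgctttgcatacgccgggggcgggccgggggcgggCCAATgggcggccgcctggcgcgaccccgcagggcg
The Hoxd13 window held the TATA box core on both strands in overlapping positions, 124 and 126 bases before the start, and a CCAAT box 212 bases before it. The Hoxd12 window held CCAAT boxes 217 and 5 bases before the start, and the Hoxa13 window held one 36 bases before. Among all 32851 promoter windows of this length, 12.4% held the TATA box core, 10.8% the Cdx core, 4.20% the core of the Hox proteins numbered 13 and 33.8% the CCAAT box. The GC box, with the letters GGGCGG, was found in the Hoxd13 and Hoxa13 windows and in 32.7% of all windows, and is not in capitals. The GC content was 74.4% for Hoxd13, 55.6% for Hoxd12 and 80.0% for Hoxa13, and the median over all windows was 52.4%. These matches describe the letters of the windows and are no measure of binding.

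Values are given as CPM, counts scaled to library size by the TMM method of edgeR, for replicates 1, 2 and 3 of each group. Total counts were 14346478 to 17749716 per library. Epcam, an epithelial adhesion molecule, lay between 1144 (DXM 3) and 2207 CPM (control 2). It is among 10 genes listed for the colonic epithelium, whose summed level ran from 11115 CPM in DXM 3 to 34369 CPM in control 2. The list was not uniform, since Lgr5 had 7 to 117 counts and Muc2 5053 to 122246, against 22597 to 39206 for Epcam. The libraries of model 1 and model 2 were far more alike than the other 65 pairs (common dispersion 0.00201, against 0.0604 to 0.351). The labels name them as separate samples, and whether they come from 1 animal or 1 RNA was not tested, so the 3 model libraries may stand for fewer than 3 mice. Rhy 1 had the fewest genes with a count, 19477, against 21178 to 23468 in the other libraries, and the share of mitochondrial counts ran from 6.33% (control 3) to 25.7% (DXM 1).

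Hoxb13 (chr11:96194316-96197447) was either high or close to absent. Its level in control 1, 2 and 3 was 155, 72.0 and 0.165 CPM. The 3 model libraries had 226, 205 and 1.49 CPM, and the 3 Rhy libraries had 0, 316 and 230.5 CPM. Control 3, model 3 and Rhy 1 thus stood apart from the other libraries of their treatment, while the DXM group, at 221, 195 and 236 CPM, had no such library. The counts behind the low values were 3 in control 3, 25 in model 3 and 0 in Rhy 1, against 1035 to 4846 in the other 9 libraries. Compared with the mean of the other 2 libraries of its group, Hoxb13 was 688-fold lower in control 3 (exact Poisson 95% interval 236 to 3337, counting error only), 145-fold lower in model 3 and at least 1065-fold lower in Rhy 1, with the count of 0 set to a floor of 3 counts. In bulk tissue, fewer cells that express a gene and less RNA per cell cannot be told apart.

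**Figure D1:**
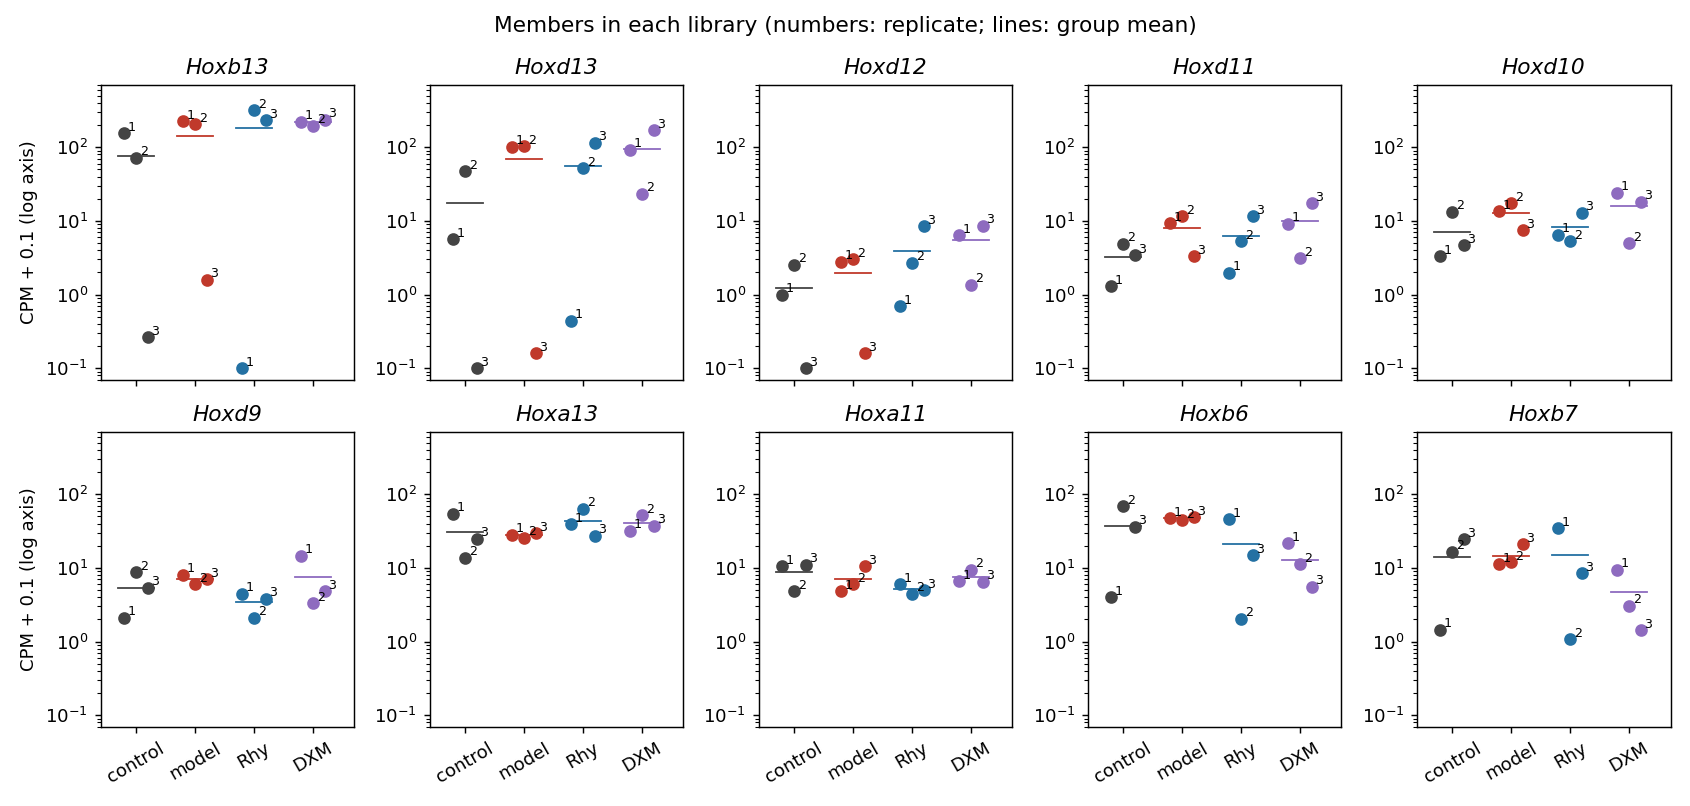
CPM + 0.1 (log axis) of the 10 members in each of the 12 libraries, grouped by treatment, with the replicate number beside each point and the group mean as a line. Hoxb13, Hoxd13 and Hoxd12 sit at or near the bottom in control 3, model 3 and Rhy 1, Hoxa13 stays between 13.7 and 63.5 CPM, and Hoxb6 and Hoxb7 are lowest in control 1, Rhy 2 and DXM 3 of their groups.

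Hoxd13 (chr2:74668310-74671599), the last gene of the Hoxd cluster, followed Hoxb13 at the low end. It was at 5.54, 46.9 and 0 CPM in the control group, 102, 103 and 0.0596 in the model group, 0.342, 51.8 and 115 in the Rhy group and 91.9, 23.2 and 169 CPM in the DXM group. The same 3 libraries were lowest, with 0 counts in control 3, 1 in model 3 and 4 in Rhy 1. Against the other 2 libraries of its group, Hoxd13 was at least 159-fold lower in control 3, 1719-fold lower in model 3 (exact Poisson 95% interval 308 to 67890) and 244-fold lower in Rhy 1. Among the other 9 libraries the order of Hoxd13 was not that of Hoxb13. Control 1 had the higher Hoxb13 and the lower Hoxd13 of the control pair, and DXM 2 had Hoxd13 5.63-fold below the mean of DXM 1 and DXM 3 with Hoxb13 only 1.17-fold below.

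Hoxd12 (chr2:74675013-74677705), the next gene inward, was present at a much lower level. It measured 0.899, 2.43 and 0 CPM in the control group, 2.70, 2.91 and 0.0596 in the model group, 0.599, 2.61 and 8.32 in the Rhy group and 6.31, 1.25 and 8.56 in the DXM group. Control 3, model 3 and Rhy 1 were again the lowest of their groups, with 0, 1 and 7 counts. The depth limits this gene, since 3 counts corresponded to 0.145 to 0.257 CPM.

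Further from the end of the cluster, the 3 libraries no longer stood apart. Hoxd11 (chr2:74679557-74687016) was at 1.20, 4.80 and 3.29 CPM in the control group, 9.16, 11.5 and 3.22 in the model group, 1.88, 5.16 and 11.5 in the Rhy group and 9.12, 3.04 and 17.2 in the DXM group. Model 3 and Rhy 1 were the lowest of their groups, but control 3 was not. Hoxd10 (chr2:74691924-74695105) was at 3.22, 13.1 and 4.61 CPM in the control group, 13.3, 17.4 and 7.39 in the model group, 6.42, 5.22 and 12.8 in the Rhy group and 24.0, 4.87 and 18.0 in the DXM group. Only model 3 was the lowest of its group here. Hoxd9 (chr2:74697727-74700208) was at 2.02, 8.62 and 5.27 CPM in the control group, 8.00, 5.89 and 6.97 in the model group, 4.37, 2.02 and 3.73 in the Rhy group and 14.5, 3.23 and 4.76 in the DXM group, and none of the 3 libraries was the lowest of its group. Hoxd8, the next gene toward the front and not a member, was the highest of its group in all 3, at 15.1 CPM in control 3, 12.6 in model 3 and 12.7 in Rhy 1.

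The same values were expressed as the log2 ratio of a library to the mean of the other 2 of its group. In model 3 it was -10.75 for Hoxd13, -5.56 for Hoxd12, -1.68 for Hoxd11, -1.06 for Hoxd10, 0.01 for Hoxd9 and 0.83 for Hoxd8. Rhy 1 gave -7.93, -3.19, -2.14, -0.49, 0.60 and 1.84 for the same genes. In control 3, where Hoxd13 and Hoxd12 had no count, the ratios at the floor of 3 counts were -7.32 and -3.34, and Hoxd11 to Hoxd8 followed with 0.14, -0.83, -0.01 and 1.62. With 0 or 1 count for both Hoxd13 and Hoxd12 in control 3 and model 3, the step between these genes follows their level in the other libraries (for Hoxd12 in model 3, the exact Poisson 95% interval of the fold was 8.46 to 1862). For Hoxd11 and Hoxd10, libraries with high Hoxb13 had ratios of the same size, with -1.76 and -1.46 in control 1 and -2.12 and -2.11 in DXM 2. Evx2, the homeobox gene that flanks Hoxd13 outside the cluster, had a count of 0 in these 3 libraries and was at 0.374 to 5.89 CPM in the other 9. Lnpk and Mtx2, the next listed genes on either side, had a count in every library, with 66 or more for Lnpk and 393 or more for Mtx2. Hoxd11 shares 455 exonic bases and Hoxd10 shares 104 with the overlapping transcript Gm28309 on the same strand, so part of their counts is uncertain.

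**Figure D2:**
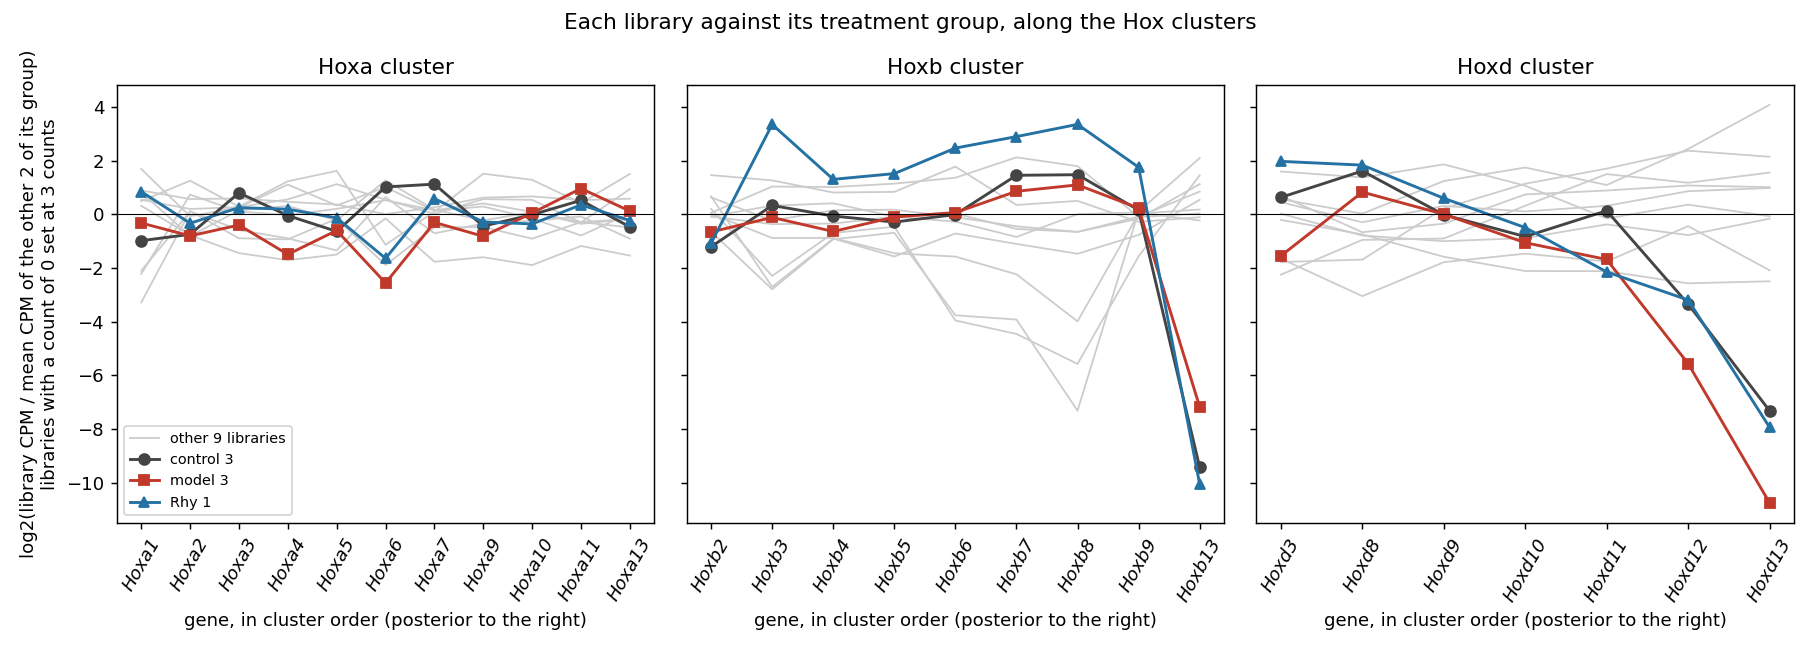
log2 ratio of each library to the mean CPM of the other 2 libraries of its treatment, for the Hox genes past the filter in cluster order, with control 3, model 3 and Rhy 1 coloured and the other 9 libraries in grey. Libraries with a count of 0 are set at 3 counts. The Hoxd lines descend from 0.83 to 1.84 at Hoxd8 to -7.32 to -10.75 at Hoxd13, the Hoxb lines reach -7.18 to -10.06 at Hoxb13, and the Hoxa lines stay near 0 at Hoxa13.

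Hoxa13 (chr6:52257694-52260880), which with Hoxd13 patterns the hindgut, did not share this behaviour. It was at 54.7, 13.7 and 24.7 CPM in the control group, 28.2, 25.6 and 29.3 in the model group, 38.8, 63.5 and 27.3 in the Rhy group and 31.9, 52.0 and 37.4 in the DXM group. Control 3, model 3 and Rhy 1 lay in the middle of their group or, for model 3, at its top. Their log2 ratios to the rest of the group were -0.47, 0.12 and -0.23. Hoxa11 (chr6:52242106-52245810) was at 10.5, 4.73 and 10.9 CPM in the control group, 4.74, 5.95 and 10.4 in the model group, 5.91, 4.38 and 4.87 in the Rhy group and 6.45, 9.30 and 6.43 in the DXM group. It was highest in all 3 libraries, by up to 0.96 on the log2 scale in model 3. Hoxa11 shares 800 exonic bases (35.0% of its length) with the antisense gene Hoxa11os. The strand setting of the counting is not given in the sources used here, so reads in the shared bases cannot be told apart. Hoxa11os went the other way and was lowest of its group in control 3 (15.6 CPM), model 3 (20.7) and Rhy 1 (24.3). Hottip, the non-coding gene beyond Hoxa13, was lowest of its group in control 3 (0.220 CPM), model 3 (3.99) and Rhy 1 (2.40), against 2.71 to 18.8 CPM in the other 9 libraries.

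Hoxb6 and Hoxb7, from the middle of the Hoxb cluster, had their lowest values in other libraries. Hoxb6 (chr11:96292476-96301569) was at 3.89, 69.1 and 36.3 CPM in the control group, 47.5, 44.7 and 48.3 in the model group, 46.1, 1.96 and 14.7 in the Rhy group and 21.4, 11.1 and 5.47 in the DXM group. Hoxb7 (chr11:96286623-96290162) was at 1.35, 16.4 and 24.4 CPM in the control group, 11.2, 11.8 and 20.8 in the model group, 34.7, 0.980 and 8.32 in the Rhy group and 9.39, 2.99 and 1.32 in the DXM group. Both were lowest of their group in control 1, Rhy 2 and DXM 3. These libraries had the highest Hoxb13 of their groups, at 155, 316 and 236 CPM. Against the other 2 of its group, Hoxb7 was 15.1-fold lower in control 1, 21.9-fold lower in Rhy 2 and 4.70-fold lower in DXM 3, and Hoxb6 was 13.5-fold, 15.5-fold and 2.97-fold lower. Hoxb7 was highest of its group in control 3, model 3 and Rhy 1, the libraries with the least Hoxb13. The levels in Rhy 1 and Rhy 2 were close to opposite, Rhy 1 with 34.7 CPM of Hoxb7 and no count of Hoxb13, Rhy 2 with 0.980 CPM of Hoxb7 and 316 CPM of Hoxb13.

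The other Hoxb genes placed the boundary between Hoxb9 and Hoxb13. Hoxb8, beside Hoxb7, was at 0.150, 19.8 and 27.8 CPM in the control group, 11.9, 11.8 and 25.4 in the model group, 42.0, 0.522 and 7.70 in the Rhy group and 6.31, 3.33 and 0.304 in the DXM group, and ordered the libraries within each group nearly as Hoxb7 did. Hoxb9, the last gene before Hoxb13, was not low in control 3 (57.9 CPM), model 3 (77.1) or Rhy 1 (66.4). Of the 29 Hox genes that are not members, 17 passed the filter, and the Hoxc genes, with at most 13 counts in a library, were not among them.

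The order of the members depends on their length, so levels between genes were compared in the authors' FPKM. By median over the 12 libraries, Hoxb13 was highest at 88.3 FPKM (0 to 142), followed by Hoxd13 at 19.9 (0 to 66.2), Hoxb6 at 14.7 (0.985 to 35.7) and Hoxa13 at 12.2 (5.62 to 25.4). Hoxb7 (6.51), Hoxd10 (5.50), Hoxa11 (2.65), Hoxd9 (2.33), Hoxd11 (1.18) and Hoxd12 (0.996) came below. Hoxb13 exceeded every other member in 8 of the 9 libraries other than control 3, model 3 and Rhy 1. The exception was control 2, with 33.1 FPKM of Hoxb13 and 35.7 of Hoxb6. The ranges of Hoxd13, Hoxb6 and Hoxa13 overlap, as do those of neighbours further down the order.

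The pooled within-group SD of log2 CPM, computed after subtraction of each group's mean, sets this spread beside that of other genes. Hoxb13 had the largest value of the 16904 genes, 4.54, and Hoxd13 the next, 4.11. Hoxd12 (1.98), Hoxb7 (1.82) and Hoxb6 (1.64) also lay in the top 5%, which began at 1.21. Hoxd11 (1.12) and Hoxd10 (0.92) lay below that limit and above the median of 0.42, as did Hoxd9 (0.81), Hoxa13 (0.61) and Hoxa11 (0.48). The members were chosen for such differences, so these ranks are a description. With control 3, model 3 and Rhy 1 left out, a setting chosen after the data were examined, 6 members were in the top 5% in place of 5.

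**Figure D3:**
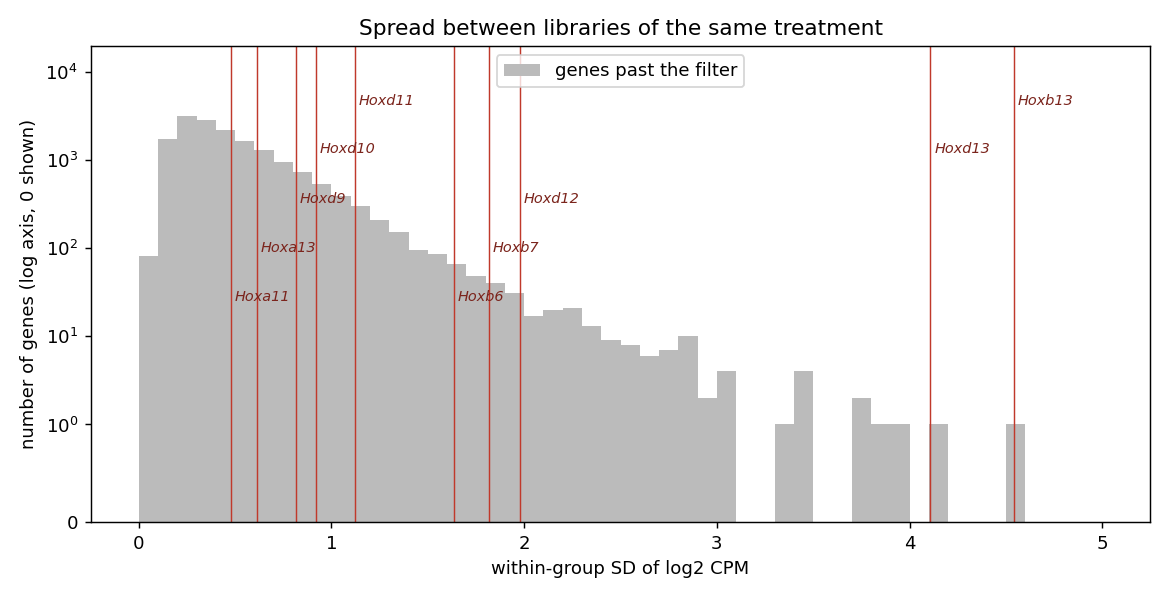
Histogram of the within-group SD of log2 CPM over the 16904 genes past the filter (number of genes on a log axis), with a line for each of the 10 members. Hoxb13 at 4.54 and Hoxd13 at 4.11 lie at the far right, and Hoxa11 at 0.48 lies near the median of 0.42.

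Likeness to Hoxb13 was described by Pearson's r of log2 CPM after subtraction of the group means, over 12 libraries, of which control 3, model 3 and Rhy 1 carry most of the variation. It fell along the Hoxd cluster, with 0.91 for Hoxd13, 0.83 for Hoxd12, 0.46 for Hoxd11, 0.27 for Hoxd10 and -0.26 for Hoxd9. It was 0.10 for Hoxa13, -0.55 for Hoxb6, -0.58 for Hoxa11 and -0.69 for Hoxb7. Without the 3 low libraries, r was -0.58 for Hoxd13 and 0.87 for Hoxa13, so the likeness of Hoxd13 rests on those libraries, while Hoxb6 (-0.91) and Hoxb7 (-0.82) kept the sign. Among all genes, 5.24% had an r above 0.8 with Hoxb13 and 2.13% an r below -0.8. Over the 12 libraries, the 10 most alike were Vsig1 (0.99), Tlr7 (0.98), Eno3 (0.98), Phyhd1 (0.98), Atp12a (0.97), AI854703 (0.97), Snora41 (0.97), Ctse (0.97), Dennd4b (0.97) and Slfn8 (0.97). The 5 least alike were Gfod2 (-0.97), Slc25a46 (-0.96), Alas1 (-0.96), Zfp672 (-0.96) and Vti1a (-0.95). Without the 3 low libraries, r was 0.85 for Eno3, 0.60 for Vsig1, 0.42 for Atp12a and 0.20 for Tlr7, and it turned to -0.78 for Slfn8. Vsig1, a junctional protein of the gastric mucosa, was at 0.494 CPM in control 3, 0.834 in model 3 and 0.342 in Rhy 1, against 4.45 to 15.6 CPM in the other 9 libraries. Eno3, an enolase, was at 34.4, 41.5 and 37.8 CPM in these 3 libraries and at 163 to 440 CPM in the others.

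Of the genes listed for the distal colon, Atp12a, Fxyd4 and Insl5 were low in the libraries with little Hoxb13. Of the 6 listed, Prac1 is not in the table, and the other 5 all had a positive r (median 0.89, 0.41 to 0.97; the median over all genes was 0.04). Atp12a, the colonic H+/K+ ATPase, was at 70.5, 67.7 and 1.04 CPM in the control group, 231, 252 and 1.37 in the model group, 1.97, 516 and 168 in the Rhy group and 177, 178 and 243 in the DXM group. It was 66.3-fold lower in control 3, 176-fold lower in model 3 and 174-fold lower in Rhy 1 than in the other 2 libraries of the group. Fxyd4, a regulator of the sodium pump, had a count of 0 in control 3, model 3 and Rhy 1 and was at 0.674 to 278 CPM elsewhere. Insl5, a hormone of distal enteroendocrine cells, was at 98.4, 13.3 and 8.07 CPM in the control group, 27.1, 29.7 and 8.76 in the model group, 2.05, 143 and 131 in the Rhy group and 101, 141 and 179.5 in the DXM group, lowest in the same 3 libraries. The sodium channel subunits Scnn1b (r 0.41) and Scnn1g (r 0.76) were lowest of their group in model 3 and Rhy 1 but not in control 3. Scnn1b was highest of its group in control 3, at 5.21 CPM. Scnn1g was near the floor in the control group, at 0.749, 0.209 and 0.274 CPM from 10, 3 and 5 counts. The summed CPM of the list was 14.6 in control 3, 12.5 in model 3 and 4.37 in Rhy 1, against 85.7 to 686 in the other 9 libraries.

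Genes listed for the small intestine and proximal colon were not as uniform. Of the 9, 7 passed the filter, 4 with a positive and 3 with a negative r (median 0.24). Rbp2, with the highest r of these 7 (0.76), was lowest of its group in control 3, model 3 and Rhy 1, as the distal Atp12a and Insl5 were. Its level there was 2.72-fold, 2.22-fold and 2.13-fold below the mean of the other 2 libraries. In DXM 2, where Hoxb13 was high, Rbp2 was 2.8-fold lower than in the other 2 of its group. Slc10a2, the ileal bile acid transporter, was at 1.57, 108 and 224 CPM in the control group, 52.8, 56.7 and 97.6 in the model group, 94.4, 11.0 and 102 in the Rhy group and 53.3, 19.4 and 5.62 in the DXM group. It was low in control 1, Rhy 2 and DXM 3, as Hoxb6 and Hoxb7 were. Cdx2 had an r of -0.82 with Hoxb13 and was at 433 CPM in control 3, 391 in model 3 and 535 in Rhy 1, against 56.5 to 271 CPM in the other 9. Osr1, a transcription factor of the mesenchyme, was lowest of its group in the 3 libraries (1.48, 2.03 and 1.97 CPM; r 0.85).

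**Figure D4:**
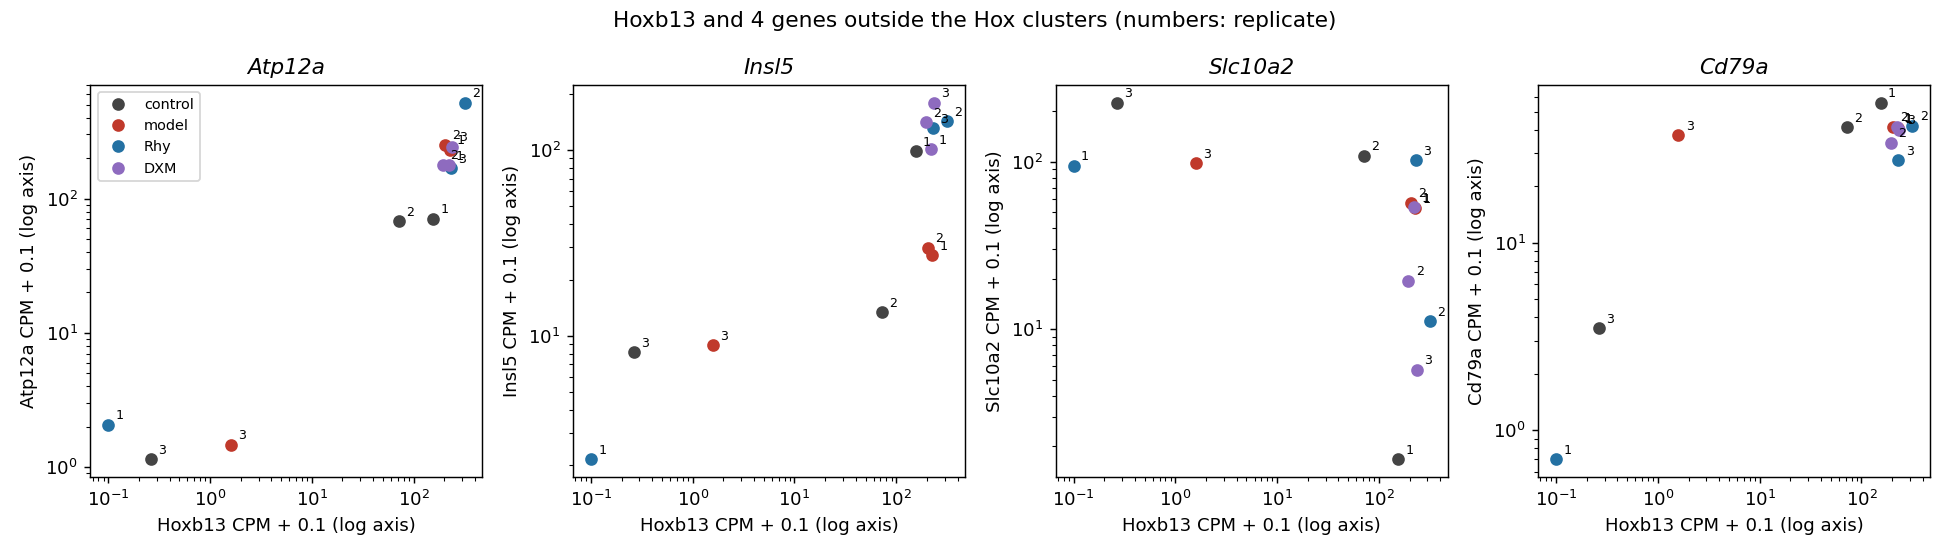
CPM + 0.1 (log axes) of Atp12a, Insl5, Slc10a2 and Cd79a against Hoxb13 in the 12 libraries, coloured by treatment with the replicate number beside each point. Atp12a is at 1.04 to 1.97 CPM in the 3 libraries at the left and at 67.7 to 516 in the others, whereas Cd79a is low in control 3 and Rhy 1 and not in model 3.

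Markers of B cells moved with part of the pattern. Cd79a, Cd79b and Ms4a1, which encode parts of the B cell receptor complex and a B cell surface protein, had r values of 0.90, 0.88 and 0.87 with Hoxb13. Cd79a was at 55.8, 41.4 and 3.40 CPM in the control group, 40.6, 41.6 and 37.3 in the model group, 0.599, 42.1 and 27.6 in the Rhy group and 41.4, 34.2 and 40.1 in the DXM group. It was thus low in control 3 and Rhy 1, and model 3 lay outside the pattern. Ms4a1 was at 0.933 CPM in control 3, 0 in Rhy 1 and 20.7 in model 3, against 11.9 to 29.1 CPM in the other 9 libraries. The 10 smooth muscle genes had r values of 0.30 to 0.59 and their summed level was 3744 CPM in control 3, 4332 in model 3 and 6659 in Rhy 1, against 4228 to 10508 CPM in the other 9. The part of these cells in the levels of the Hox genes was not tested. The prostate, which expresses Hoxb13, was represented by 6 genes, of which 5 had a count of 0 in all libraries, and the summed level of the list was at most 0.771 CPM. The 6 genes of the pancreatic acinus summed to at most 0.243 CPM. For the squamous epithelium of the anus, 4 of 12 genes passed the filter, and all 4 had a positive r with Hoxb13 (median 0.63, 0.10 to 0.78). The defining keratin Krt5 had at most 4 counts, whereas Krt14 reached 251 and Krt13 106. The summed level was 6.67 to 28.4 CPM. It was lowest of its group in control 3 (7.30), model 3 (6.67) and Rhy 1 (8.90). The part of this epithelium in the levels of the Hox genes was not tested.

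The treatments were compared by the quasi-likelihood test of edgeR, fitted once to the 12 libraries, and p-values were adjusted over the 16904 genes by the Benjamini-Hochberg method. None of the 10 members had an adjusted p under 0.05 in any of the 3 comparisons, and none had an unadjusted p under 0.05. No member had an adjusted p under 0.05 in DESeq2 either, which gave 6 members no adjusted p in model versus control. The SE of the log2 fold change of Hoxb13 was 1.80 to 1.82, against 0.38 for Hoxa11. With model 1 and model 2 as 1 library, the log2 fold change of Hoxb13 was 0.53 (SE 2.08) in model versus control, 0.75 (SE 2.15) in Rhy versus model and 1.00 (SE 2.17) in DXM versus model, and the genes with an unadjusted p under 0.05 in model versus control fell from 1626 to 866.

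Model mice were compared with control mice to ask which genes differ with DSS. Of all genes, 0% were called by edgeR at an adjusted p under 0.05, 9.62% had an unadjusted p under 0.05, and 1.22% of those that DESeq2 adjusted were called. Hoxb13 averaged 144 ± 124 CPM (SD, n = 3) in the model group and 75.6 ± 77.3 in the control group, with a log2 fold change of 0.93 (SE 1.82, adjusted p 0.896). Hoxd13 had 1.97 (SE 1.86, adjusted p 0.757) and Hoxd11 1.35 (SE 0.77, adjusted p 0.594). The member values were positive for 8 and negative for 2, with a median log2 fold change of 0.59, against 0.01 over all genes. No member's groups were without overlap, where 17% of all genes had groups that did not overlap. The 17 other Hox genes had a median of 0.23, with 14 above 0, and the 5 distal colon genes 1.52, with 4 above 0, and none of either list had an adjusted p under 0.05.

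Rhy mice were compared with model mice to ask which genes differ with Rhy in DSS colitis. edgeR called 0% of genes and DESeq2 0.0415%, and 3.72% had an unadjusted p under 0.05 in edgeR. Hoxb13 averaged 182 ± 164 CPM (SD, n = 3) in the Rhy group, with a log2 fold change of 0.34 (SE 1.80, adjusted p 1.00). Hoxd9 had a log2 fold change of -1.04 (SE 0.60, adjusted p 1.00), and its 3 Rhy values (2.02 to 4.37 CPM) lay below the 3 model values (5.89 to 8.00). It was the single member whose groups did not overlap, where 11.5% of all genes had this. Hoxb6 had -1.17 (SE 0.97, adjusted p 1.00), with Rhy 1 inside the model range. The median over the members was -0.32, with 3 above 0 and 7 below, against -0.01 over all genes. The 17 other Hox genes had a median of -0.46, with 15 below 0 and 3 of these at an unadjusted p under 0.05, but none at an adjusted one. Hoxb13 turned to -0.21 without model 3 and to -0.32 without Rhy 2.

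DXM mice were compared with model mice to ask which genes differ with dexamethasone in DSS colitis. edgeR called 0% of genes and DESeq2 0.32%, and 7.69% had an unadjusted p under 0.05 in edgeR. Hoxb13 averaged 217 ± 20.6 CPM (SD, n = 3) in the DXM group, with a log2 fold change of 0.59 (SE 1.81, adjusted p 0.955). Without control 3, model 3 and Rhy 1, the value was 0.03. These libraries were left out with their low Hoxb13 known, so the smaller value follows from that choice and is no test. The model group then held only model 1 and model 2, which were far more alike than the other pairs. Hoxb6 had a log2 fold change of -1.89 (SE 0.99, adjusted p 0.665) and Hoxb7 -1.69 (SE 1.12, adjusted p 0.708), and the 3 DXM values of both genes lay below the 3 model values. Hoxa13 had 0.54 (SE 0.43, adjusted p 0.756), with the 3 DXM values above the 3 model values. Groups without overlap were found for these 3 members and for 22.6% of all genes. The median over the members was 0.30, with 8 above 0, against -0.01 over all genes. All 5 distal colon genes were above 0, with a median of 2.68, and 2 had an unadjusted p under 0.05 but none an adjusted one. In the same comparison the 5 fibroblast genes were all above 0 (median 1.38, 4 with an unadjusted p under 0.05), as were the 10 smooth muscle genes (median 0.68, 5 with an unadjusted p under 0.05), and the part of these cells was not tested. The 17 other Hox genes had a median of -0.53, with 14 below 0. These comparisons share the model libraries, so they are not independent of each other.

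**Figure D5:**
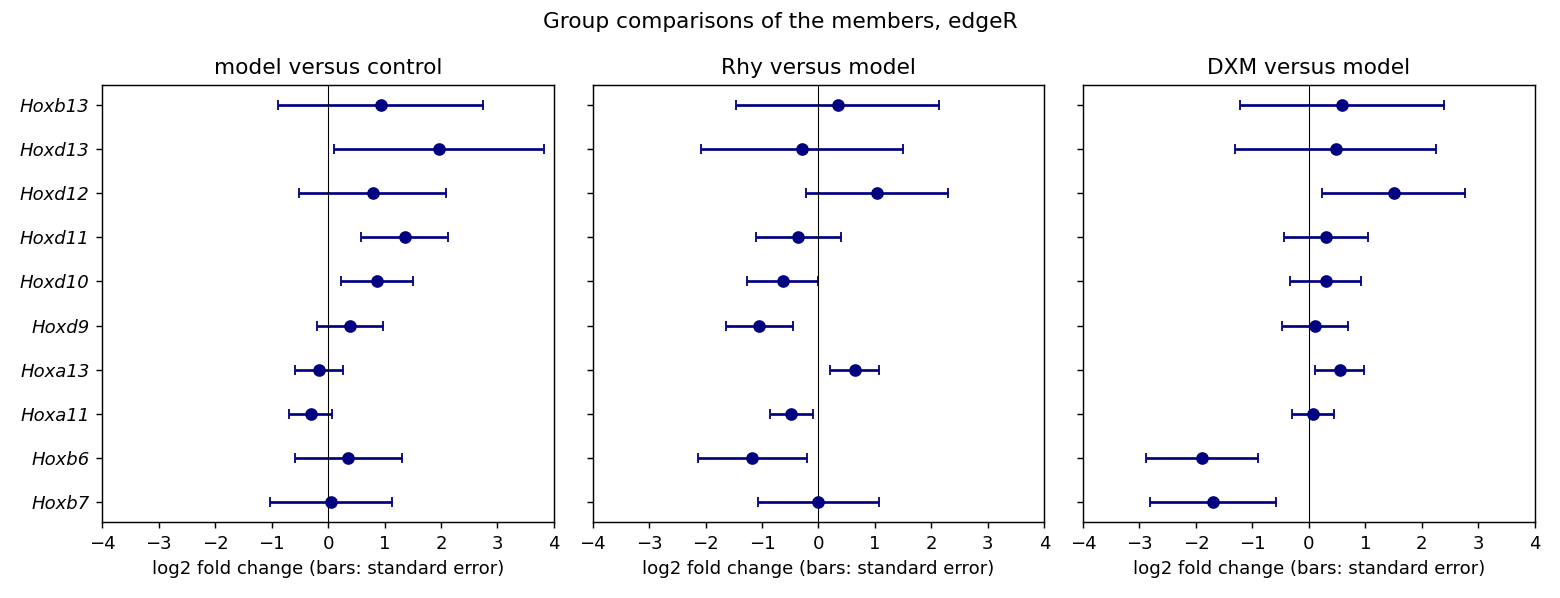
edgeR log2 fold changes of the 10 members with standard errors for model versus control, Rhy versus model and DXM versus model. The bars of Hoxb13 and Hoxd13 are the widest, with standard errors of 1.79 to 1.86, and those of Hoxa11 and Hoxa13 the narrowest, with 0.38 to 0.43.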

How the data were processed

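RNA-Seq of colonic tissue covered 12 libraries, 3 for each treatment named in the labels (control, model, Rhy, DXM). The authors deposited whole-number read counts per gene without normalization, and FPKM values, in which the length of the gene and the size of the library are divided out. The submitters' processing notes name HISAT2 2.0.5, featureCounts 1.5.0-p3, DESeq2 1.16.1 and mm10; the strand setting of the counting is not given in the sources used here. Columns of samples outside the list numbered 0. Total counts were 14346478 to 17749716 per library, and intervals cover counting error only.

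Of 54532 genes, 16904 passed filterByExpr of edgeR (minimum count 10). In R 4.3.3, edgeR 4.0.16 (TMM, quasi-likelihood test, two-sided) was fitted to all 12 libraries. Log2 CPM carried a prior count of 2, and CPM none. DESeq2 1.42.0 and limma 3.58.1 on log2(FPKM + 1) and log2(FPKM + 0.1) served as alternatives, together with RLE scaling, no filter beyond a count of any size, fits restricted to the pair of groups, a replicate block, model 1 and model 2 as 1 library, and each library left out. Coordinates of the 10 members match GENCODE M21. On simulated counts of 16904 genes for model versus control, edgeR recovered 108 of 200 genes changed 4-fold with 1 false call, and DESeq2 153 with 37. The members and lists were chosen with earlier results of these data known. Every member is named, any listed gene past the filter may be (some are not reported here), and the 10 genes most like and the 5 least like Hoxb13 are. The DXM group is absent from the RNA-Seq methods of the paper and was compared here as the labels give it. The labels do not say that libraries come from separate litters or batches, and p-values measure the spread between these samples. Deviations from the group means of same-numbered model and control libraries correlated at 0.21, 0.10 and 0.36, all above 0.1. Those of Rhy and model correlated at -0.23, 0.14 and -0.20, and those of DXM and model at -0.01, -0.09 and -0.14. These values cannot show that the numbers pair mice, since model 1 and model 2 were far more alike than the other pairs. Model 2 also correlated more with control 1 (0.21) than with control 2 (0.10). The numbers were used only in the alternative with a replicate block, and the main fit did not pair mice.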

Additional observations from a re-analysis of the deposited data

How the results depend on the processing

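No member had an adjusted p under 0.05 in any comparison under the 21 alternatives run for each. Of 210 values of a member's log2 fold change per comparison, 7 turned sign in model versus control, 18 in Rhy versus model and 16 in DXM versus model, and 7, 5 and 5 members never did. The cause was not tested. Over all genes, the number with an adjusted p under 0.05, 0 by edgeR with all libraries, was 74, 7 and 54 by DESeq2 in the 3 comparisons in this order. It was 1 in model versus control with genes of any count and with only the groups compared, and 2 in DXM versus model with only the groups compared, with limma on log2(FPKM + 0.1) and with control 3, model 3 and Rhy 1 left out. It was 2 in Rhy versus model with limma on log2(FPKM + 0.1). Leaving out 1 library gave 0 to 1 in model versus control and in Rhy versus model. At an unadjusted p under 0.05, model versus control gave 1626 genes, 866 with model 1 and model 2 as 1 library and 2686 without control 3, model 3 and Rhy 1. Rhy versus model gave 628, 283 and 1453, and DXM versus model 1300, 736 and 1572. In the last of these settings the model group held only model 1 and model 2, which were far more alike than the other pairs. The spread between mice may then be understated, so the larger counts cannot be read as treatment effects.

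The replicate block changed no call, with 0 genes past the adjusted threshold in each comparison and 1820, 626 and 1244 at an unadjusted p under 0.05. With the replicate block, Hoxb7 turned to -0.13 in model versus control and Hoxd9 to -0.012 in DXM versus model.

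In model versus control, Hoxb7 was -0.0018 with RLE scaling and Hoxa13 0.0082 with limma on log2(FPKM + 0.1). Leaving out 1 library gave -0.51 to 0.53 for Hoxa13, -0.17 to 1.21 for Hoxb6 and -0.48 to 0.68 for Hoxb7. In Rhy versus model, Hoxb7 was 0.025 with RLE scaling and 0.032 in DESeq2. Hoxb13 was -0.0049 with limma on log2(FPKM + 1) and -0.73 with log2(FPKM + 0.1). Hoxd13 was 0.066 with the latter and 0.12 with model 1 and model 2 as 1 library. Leaving out 1 library gave -0.32 to 0.93 for Hoxb13, -1.64 to 0.55 for Hoxb7, -1.16 to 0.070 for Hoxd11, -0.22 to 1.53 for Hoxd12 and -1.38 to 0.29 for Hoxd13. In DXM versus model, Hoxd9 was -0.078 with limma on log2(FPKM + 1) and -0.16 with log2(FPKM + 0.1). Hoxa11 was -0.085 with model 1 and model 2 as 1 library. Hoxd13 was -0.10 and Hoxd11 -0.061 without control 3, model 3 and Rhy 1, which were left out with their low Hoxb13 known. Leaving out 1 library gave -0.15 to 0.49 for Hoxa11, -0.15 to 0.72 for Hoxd10, -0.39 to 0.73 for Hoxd11, -0.25 to 0.93 for Hoxd13 and -0.80 to 0.47 for Hoxd9. The number of members in the top 5% by within-group SD was 5 or 6 under all alternatives run. The depth limits Hoxd12 and the folds of genes with a count of 0.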

Other observations

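Further listed genes differed sharply between libraries, some in 1 library and some in several. Rhy 3, where Hoxb13 was at 230.5 CPM, had 461 CPM of Apoa1, an apolipoprotein of small intestinal enterocytes, against 0 to 24.3 CPM in the other libraries. Fabp6, the ileal bile acid binding protein, was at 324 CPM in Rhy 3 and at 2.53 to 20.3 CPM elsewhere. Osr2, a zinc finger transcription factor, was at 0.0749 CPM in control 1, 1.18 in Rhy 2 and 1.22 in DXM 3, and at 10.6 to 145 CPM in the others. Those libraries were the lowest of their groups in Hoxb6 and Hoxb7 and the highest in Hoxb13, and Osr2 had an r of -0.57 with Hoxb13. Isx, an intestinal homeobox gene with an r of -0.60 with Hoxb13, had 29 to 2740 counts over the 12 libraries. It was at 25.9, 107 and 150.4 CPM in the control group and at 42.7, 28.7 and 1.47 CPM in the DXM group. Its values in the model and Rhy groups are not reported here, and the DXM and control groups were not compared by a test. Cfd, the adipsin of fat cells, was at 79.0 CPM in model 3 and at 0.150 to 29.3 CPM in the other libraries.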
